A study of Mus musculus with 7 samples.

Results

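The epithelial claudins Cldn1, Cldn2, Cldn3, Cldn4, Cldn6, Cldn7, Cldn8, Cldn15, Cldn18 and Cldn23 were followed across 7 mouse tissues. They were taken by name, with earlier results of these data known. All 10 had a probe on the array, out of 17047 genes that could be named. Of these, 9 had 1 probe and Cldn1 had 2. Total RNA of each tissue was hybridized to 1 one-colour Agilent array. A group was therefore a single array, and no spread over samples, test or p-value can be given.

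The first group was stomach-type tissue grown from mouse embryonic stem (ES) cells for 42 days with EGF, FGF10, Wnt3a, R-spondin1, which strengthens Wnt signals, and Noggin, which blocks BMPs. The second was the same type of tissue at 46 days, after a further 4 days in Shh and Bmp4. The labels do not say which of the first factors stayed in the medium. They give neither the ES line nor how many cultures went into an array. The other groups were adult esophagus, lung, stomach and intestine freshly taken from ICR mice, and the stomach primordium of ICR embryos at embryonic day 9.5 (E9.5). The labels give neither the part of the intestine sampled nor the number of animals. The 4 adult organs shared 1 slide and the other 3 arrays each had a slide of their own, so outside the adult organs slide and group cannot be told apart. The ES-derived arrays were also read with another version of the scanner software than the rest. Software version and ES origin therefore cannot be told apart either. All were bulk tissues, so fewer cells of a type and less RNA per cell cannot be told apart.

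Claudins are small membrane proteins with 4 transmembrane segments that form the strands of the tight junction, the seal around the top of epithelial cells. Each epithelium uses its own mix. Some claudins tighten the seal, while others, Cldn2 and Cldn15 among them, open it to small cations and, for Cldn2, water. In the normal adult stomach Cldn18 is a main claudin of the glands, and Cldn6 is known mainly from embryonic epithelia.

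The sequences before the transcription starts are shown for Cldn2, Cldn6, Cldn15 and Cldn18, picked after their levels were seen because each stood out in 1 or a few tissues. Each is the 250 bases upstream of a start, 5′ to 3′ on the gene's strand, from RefSeq (GRCm38.p6). Cldn18 has 2 lines because it has 2 starts, 7204 bases apart, and its lung and stomach forms are known to begin with different first exons.
Cldn2 (chrX:139800558-139800807, plus strand): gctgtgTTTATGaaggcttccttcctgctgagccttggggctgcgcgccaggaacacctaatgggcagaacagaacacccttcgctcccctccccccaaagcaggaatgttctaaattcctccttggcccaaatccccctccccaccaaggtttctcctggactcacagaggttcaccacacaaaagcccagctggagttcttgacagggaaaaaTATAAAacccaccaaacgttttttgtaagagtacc
Cldn6 (chr17:23679115-23679364, plus strand): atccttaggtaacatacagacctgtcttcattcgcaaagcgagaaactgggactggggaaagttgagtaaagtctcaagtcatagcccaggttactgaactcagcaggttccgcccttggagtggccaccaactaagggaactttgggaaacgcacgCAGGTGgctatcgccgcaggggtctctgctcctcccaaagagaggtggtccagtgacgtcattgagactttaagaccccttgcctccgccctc
Cldn15 (chr5:136967619-136967868, plus strand): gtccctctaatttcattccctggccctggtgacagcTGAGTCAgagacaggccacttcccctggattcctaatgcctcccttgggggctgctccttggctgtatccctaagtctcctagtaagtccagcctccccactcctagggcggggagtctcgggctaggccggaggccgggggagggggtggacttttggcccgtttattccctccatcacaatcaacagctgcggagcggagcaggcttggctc
Cldn18, upstream start (chr9:99717268-99717517, minus strand): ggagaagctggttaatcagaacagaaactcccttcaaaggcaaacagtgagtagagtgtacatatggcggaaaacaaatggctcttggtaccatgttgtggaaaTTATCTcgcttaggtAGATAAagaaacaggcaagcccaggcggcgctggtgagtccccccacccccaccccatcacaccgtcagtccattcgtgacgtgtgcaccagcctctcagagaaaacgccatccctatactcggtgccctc
Cldn18, downstream start (chr9:99710064-99710313, minus strand): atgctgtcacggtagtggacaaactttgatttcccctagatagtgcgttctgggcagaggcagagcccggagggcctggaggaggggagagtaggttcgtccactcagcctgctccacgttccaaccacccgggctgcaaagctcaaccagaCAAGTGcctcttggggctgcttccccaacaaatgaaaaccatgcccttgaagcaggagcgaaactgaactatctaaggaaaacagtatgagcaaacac
Capitals mark matches, on either strand, to 6 short motifs picked for this description: TATAAA (core promoter box), AGATAA (read by factors of the GATA family), CAAGTG (NKX2 factors), TGANTCA (AP-1), TTTATG (CDX factors) and CACCTG (the E-box of the Snail and Zeb repressors). None of the marked matches overlap. The share of 32851 RefSeq starts with a match in the same 250 bases was 12.4% for TATAAA, 9.99% for AGATAA, 11.6% for CAAGTG, 6.75% for TGANTCA, 10.8% for TTTATG and 17.2% for CACCTG.

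The Cldn2 stretch held TATAAA 35 bases and TTTATG 244 bases before the start. AGATAA lay on both strands of the upstream Cldn18 stretch, 131 and 146 bases before the start, and CAAGTG lay 98 bases before the downstream one. Cldn6 held CACCTG on the opposite strand and Cldn15 held TGANTCA, 214 bases before its start. Such matches describe the letters and do not show binding. In the same table Cldn4 held TGANTCA at 240 and 158 bases and CACCTG at 14 bases before its start, and 1 of the Cldn7 stretches held CACCTG on both strands and CAAGTG. The Cldn1 stretch had CAAGTG alone among the 6 motifs, and Cldn3 had no match. Cldn8 and Cldn23 had no start in that table, so no stretch of theirs was searched.

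Levels are log2 signals minus the array's 75th percentile, so 0 is the 75th percentile itself, and a difference of 1 is 2-fold. A level belongs to its own probe and is compared across arrays, not between genes. Where the scanner software did not set its flag for signal well above background, the gene has only an upper bound there, and a fold against it is given as "at least". In the absence of replicate arrays, the yardstick for a difference was the standard deviation (SD) of that difference between different probes of the same gene. It was 0.51 between the ES-derived arrays, 0.83 to 0.92 between them and the other arrays, and 0.47 to 0.70 among the others. It is technical and says nothing about variation between animals or cultures.

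Of the 10 claudins, 9 were well above background in day 42 tissue, 10 in day 46 tissue, 8 each in esophagus, lung, adult stomach and E9.5 stomach, and 7 in intestine. Over all named genes the share above background ran from 78.4% at day 42 to 90.6% at day 46. Intestine was the highest array for 4 of them (Cldn3, Cldn7, Cldn15 and Cldn23) and adult stomach for 3 (Cldn1, Cldn8 and Cldn18). Day 42 tissue was highest for Cldn2, day 46 tissue for Cldn4 and E9.5 stomach for Cldn6. The 5 claudins above background on every array spanned a median of 7.16 between their lowest and highest array, against 2.41 for the 11798 genes so detected.

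**Figure D1:**
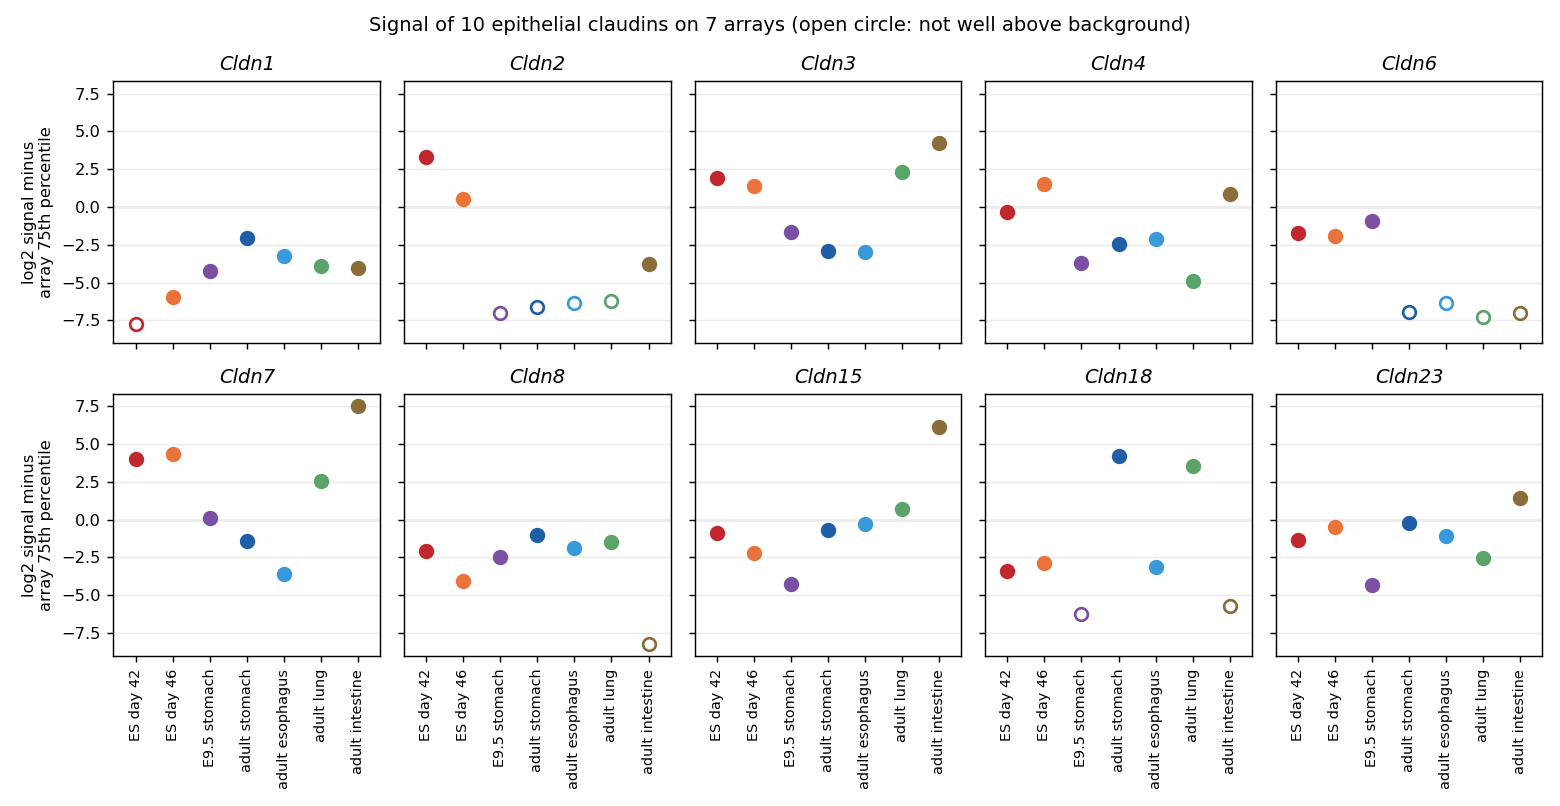
Each panel plots 1 claudin, with the log2 signal minus the array's 75th percentile on the vertical axis and 1 point for each of the 7 arrays; open circles were not well above background. Cldn2 and Cldn6 are filled on 3 arrays each, Cldn18 stands at 4.19 and 3.53 in adult stomach and lung and below -2.8 elsewhere, and Cldn7 and Cldn15 peak in intestine at 7.54 and 6.14.

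Markers of simple epithelium were found on every array at different levels. All 5 (Epcam, Cdh1, Krt8, Krt18 and Krt19) were above background on each array. Their summed level was 8.97 at day 42, 8.85 at day 46, 9.38 in adult stomach, 9.44 in intestine, 6.22 in lung, 5.19 at E9.5 and 2.89 in esophagus. The esophagus was in turn the highest array for the summed squamous markers (8.87). The epithelial adhesion protein Epcam, which binds Cldn7, was at 3.36, 3.31, 1.91, 5.34, -0.48, -1.54 and -1.05 in the same order. The part of epithelial content in the claudin levels was not tested.

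Each adult organ had its own markers. The 5 gastric markers had a median level of 9.94 in adult stomach, the 5 intestinal markers 8.03 in intestine, the 5 lung markers 5.29 in lung and the 5 squamous markers 6.48 in esophagus. In E9.5 stomach 3 of the 5 gastric markers were above background, where 82.1% of all named genes were. The gastrokine Gkn1 and the pepsinogen Pgc were not. In day 42 tissue all but Gkn1 were above background, and in day 46 tissue all 5. The median level of the gastric markers was -3.32 at day 42 and -1.48 at day 46. It was -4.26 at E9.5, against -4.15 in esophagus, -4.07 in intestine and -4.71 in lung. On the day 42 and day 46 arrays Tff1 stood at 4.36 and 6.19, Muc5ac at -3.32 and 0.28, and Atp4b at -4.84 and -3.87. Intestine had 4 of the 5 gastric markers above background, and esophagus and lung 3 each. Lung markers were also found in the esophagus array, 5 of 5 with a median of -1.32 against 5.29 in lung. Sftpc stood at 5.12 and Scgb1a1 at 5.44 there, against 9.71 and 9.57 in lung. Adult stomach had 4 of the 5 above background (median -4.6), with Scgb1a1 at 2.91 and Sftpc at -0.74. Day 42 tissue had 2 of them, and day 46 tissue, intestine and E9.5 stomach 3 each.

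Cldn2, which forms a paracellular pore for cations and water, was highest in the ES-derived tissue. Its level was 3.31 at day 42 and 0.50 at day 46. Among the 5 tissues taken from animals it was above background in intestine alone, at -3.78, while stomach (-6.64), esophagus (-6.32), lung (-6.22) and E9.5 stomach (-7.04) were not. Day 42 tissue lay above day 46 tissue by 2.81, and day 46 tissue above intestine by 4.28, both beyond the SD between probes of 0.51 and 0.88. Against adult stomach, Cldn2 was at least 792-fold higher at day 42 and at least 113-fold higher at day 46. With another background correction, which adds an offset and shrinks differences of dim probes, these bounds came down to 6.46 and 3.90 on the log2 scale, from 9.63 and 6.82. Hepatocytes also make Cldn2, and the 5 hepatocyte markers (Alb, Afp, Ttr, Apoa1 and Fgb) were all above background on both ES-derived arrays. Their median level was 2.56 at day 42 and 2.34 at day 46, against -1.33 in adult stomach, 0.49 in intestine and -6.62 at E9.5. Their summed level was 6.84 and 6.75 on the ES-derived arrays, 5.41 in adult stomach and 8.30 in intestine, of which Apoa1, also made by the gut, held nearly all in stomach (5.37) and intestine (8.28). Alb was at 5.67 and 6.08 on the ES-derived arrays, against -2.37 in adult stomach and 0.41 in intestine. Ttr and Apoa1 were lower on the ES-derived arrays than in adult stomach. Ttr was at -2.48 and -3.91 against -0.59, and Apoa1 at 2.56 and 1.38 against 5.37. The part of hepatocytes in the Cldn2 level was not tested.

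Cldn15, the other pore former and a sodium channel of the small intestine, marked the intestine. It stood at 6.14 there, then at 0.68 in lung, -0.29 in esophagus, -0.69 in adult stomach, -0.90 at day 42, -2.22 at day 46 and -4.22 at E9.5. Intestine exceeded lung by 5.46, whereas esophagus, adult stomach and day 42 tissue followed each other within the SD between probes. The ES-derived arrays, the highest for Cldn2, were thus among the lower ones for Cldn15.

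Cldn3, Cldn4 and Cldn7 occur in many simple epithelia, and Cldn3 and Cldn4 are receptors of a clostridial enterotoxin. Cldn7 was at 7.54 in intestine, 4.37 at day 46, 4.00 at day 42, 2.56 in lung, 0.13 at E9.5, -1.39 in adult stomach and -3.57 in esophagus. Its ends lay 11.11 apart, the widest of the 5 claudins detected on every array, and each step exceeded the SD between probes except that from day 46 to day 42 (0.37). Cldn3 ran from 4.2 in intestine through 2.32 in lung, 1.94 at day 42, 1.39 at day 46 and -1.68 at E9.5 to -2.88 in adult stomach and -2.96 in esophagus. Lung and day 42 tissue did not differ beyond that SD, nor did adult stomach and esophagus. Both ES-derived arrays therefore lay nearer to lung and intestine than to adult stomach for Cldn3 and Cldn7. Cldn4 was highest at day 46 (1.54), followed by intestine (0.87), day 42 (-0.35), esophagus (-2.10), adult stomach (-2.43), E9.5 stomach (-3.71) and lung (-4.87). Day 46 tissue and intestine were within the SD between probes for Cldn4.

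Cldn18 separated adult stomach and lung from the other arrays. It was at 4.19 in stomach and 3.53 in lung, a difference of 0.66 that was slightly above the SD of 0.56. Day 46 tissue (-2.85), esophagus (-3.10) and day 42 tissue (-3.42) came next, 6.38 below lung, and each differed from the following one by less than the SD between probes, while day 46 lay above day 42 by 0.57 (SD 0.51). Intestine (-5.71) and E9.5 stomach (-6.26) were not well above background. In lung Cldn18 belongs to the alveolar epithelium, and the files do not say whether the 1 probe reads both the lung and the stomach form. For the esophagus and adult stomach values, the lung markers on those arrays are given above, and their part in them was not tested.

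Cldn6 was detected in the ES-derived and embryonic tissues and in none of the 4 adult organs. Its level was -0.91 at E9.5, -1.71 at day 42 and -1.90 at day 46, and neighbours in this order differed by less than the SD between probes. The adult organs, between -7.28 and -6.36, were not well above background. Cldn9, its direct neighbour on chromosome 17 and not one of the 10, was also higher on the same 3 arrays, at -1.80 at E9.5, -1.72 at day 42 and -1.80 at day 46 against -3.78 to -3.19 in the adult organs. Cross-hybridization between the 2 probes was not tested.

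Cldn1, a sealing claudin of skin and squamous epithelia, was highest in adult stomach (-2.04), whose forestomach is squamous, and next in esophagus (-3.25). Lung (-3.88), intestine (-4.02) and E9.5 stomach (-4.22) did not differ as neighbours beyond the SD. Day 46 tissue was lower at -5.97, and day 42 tissue (-7.72) was not well above background. The second Cldn1 probe was above background in adult stomach and esophagus alone, and the stomach was its highest array too. On the first probe the ES-derived tissues were therefore the lowest of the 7, and the second gives no order among the 5 arrays below background. The 5 squamous markers had a median of -0.88 at day 42 and -0.93 at day 46, against 4.50 in adult stomach and 6.48 in esophagus, and their part in the Cldn1 level was not tested.

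Cldn8, a sealing claudin known from the distal nephron and the colon, differed in small steps over 5 arrays. Adult stomach (-1.01), lung (-1.45), esophagus (-1.86), day 42 tissue (-2.06) and E9.5 stomach (-2.49) followed in steps within the SD between probes, but the ends of this row lay 1.48 apart (SD 0.64). Day 46 tissue was lower at -4.04, and intestine (-8.24) was not well above background. Cldn23, a less studied claudin of gut epithelium, was at 1.41 in intestine, -0.20 in adult stomach, -0.49 at day 46, -1.07 in esophagus, -1.32 at day 42, -2.54 in lung and -4.32 at E9.5. From adult stomach to day 42 its neighbours differed by less than the SD between probes.

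Against adult stomach, the ES-derived tissue at day 42 had more of 5 claudins and less of 2. Cldn7 was higher by 5.39 (41.9-fold), Cldn3 by 4.82 (28.2-fold) and Cldn4 by 2.08 (4.23-fold), with Cldn2 as given above and Cldn6 at least 24.3-fold higher. The stomach claudin Cldn18 was lower by 7.61 (195-fold) and Cldn1 at least 11.5-fold lower. Cldn8 (-1.05), Cldn15 (-0.21) and Cldn23 (-1.12) did not differ 4-fold, and Cldn15 changed sign (0.26) when arrays were centred on their median. So 5 of 10 were at least 4-fold higher, where 7.39% of 14819 genes were, and 2 of 10 were at least 4-fold lower, where 10.3% of the genes were. The claudins' median difference was 0.94, against 0.00 over all genes. Of all genes past 4-fold 41.8% were on the higher side, and 61.6% with median centring, while the claudins stayed at 5 and 2. With the other background correction Cldn6 (1.44) and Cldn4 (1.45) were no longer 4-fold higher.

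At day 46 the picture against adult stomach was similar, with Cldn8 added to the lower side. Cldn7 was higher by 5.76 (54.2-fold), Cldn3 by 4.27 (19.3-fold), Cldn4 by 3.97 (15.6-fold) and Cldn6 at least 21.3-fold. Cldn18 was lower by 7.04 (132-fold), Cldn1 by 3.93 (15.2-fold) and Cldn8 by 3.04 (8.21-fold). Thus 5 of 10 were at least 4-fold higher (6.86% of 15727 genes) and 3 of 10 at least 4-fold lower (9.91%), with a median of 1.84. Both comparisons share the adult stomach array. With the other background correction Cldn6 was higher by 1.15.

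**Figure D2:**
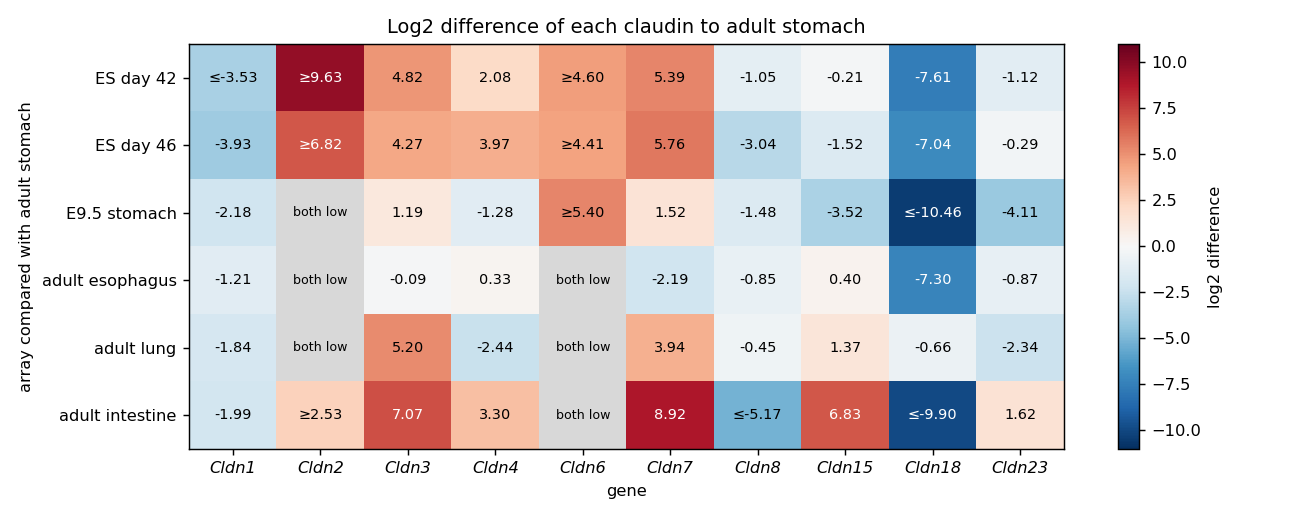
Cells give the log2 difference of each of the 10 claudins between 1 array and adult stomach, red for higher and blue for lower; ≥ and ≤ mark bounds and grey cells are genes not above background on either array. The ES-derived rows are red for Cldn2, Cldn3, Cldn4, Cldn6 and Cldn7 and blue for Cldn1 and Cldn18 (-7.61 and -7.04), and the intestine row shares the red for Cldn2, Cldn3, Cldn4 and Cldn7.

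The other tight junction genes are given for the same comparisons. Of 22 partners measured (receptors, scaffolds and polarity proteins of the junction), 2 were at least 4-fold higher at day 42 and none lower, with a median of -0.23, where 7.39% and 10.3% of all genes were. At day 46 the counts were 2 and none, with a median of -0.10, where 6.86% and 9.91% of all genes were. With the mean over probes the counts were 1 higher and 1 lower at day 42, and 1 and 2 at day 46. The 2 were Ildr1, an angulin of the corners where 3 cells meet (4.09 at day 42 and 4.24 at day 46), and Marveld3, a relative of occludin (2.36 and 2.51). With the other background correction neither was 4-fold higher. Occludin itself (Ocln) was at -0.21 and 0.20, Marveld2 (tricellulin) at -1.43 and -0.56, and the scaffold Tjp3 at 0.20 and -0.28. The junctional adhesion molecule F11r was at 0.99 and 0.94. Epcam was higher by 1.44 and 1.4, and Cdh1 (E-cadherin) by 0.03 and 0.95. Of 16 pan-epithelial genes 1 was at least 4-fold higher at day 42, the simple-epithelial keratin Krt7 (3.20).

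The comparison of day 46 with day 42 addressed the 4 days in Shh and Bmp4, in which medium and time changed together. One claudin of 10 was at least 4-fold lower and none at least 4-fold higher, where 0.764% and 1.04% of 15453 genes were. It was Cldn2, lower by 2.81 (7.03-fold). Just short of the threshold lay Cldn8, lower by 1.99 (3.97-fold), and Cldn4, higher by 1.89 (3.70-fold). Cldn15 was lower by 1.32, and Cldn23 (0.83), Cldn18 (0.57) and Cldn3 (-0.55) passed the SD between probes of 0.51, while Cldn7 (0.37, and -0.03 with median centring) and Cldn6 (-0.19) did not. Cldn1 was detected at day 46 alone but gave no measurable difference. Dividing by the array median in place of the 75th percentile shifted all genes by -0.39 here and put Cldn8 past 4-fold (-2.39). It brought Cldn18 and Cldn23 to 0.17 and 0.43 and left Cldn4 higher at 1.49 and Cldn2 lower at -3.21. Under it, 25.6% of all genes past 4-fold were on the higher side, against 57.6% as given here and 33.3% after quantile normalization. On the day 46 array the raw log2 signal of 10 spike-in RNA probes differed from the middle value of the 6 remaining arrays by -3.08 to 1.05, with a median of -2.67. Its part in these differences was not tested.

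None of the 22 junction partners differed 4-fold in either direction at this step, and their median was 0.10, or -0.30 with median centring. The widest were Cgnl1 (paracingulin) at -1.11, Mpdz, a scaffold with many PDZ domains, at 1.03 and Cxadr, an adhesion protein and virus receptor, at 0.96. Ocln was at 0.41, Marveld2 at 0.87, Marveld3 at 0.16, Tjp1 at 0.46, Tjp3 at -0.47 and F11r at -0.06. Among epithelial markers Epcam was at -0.05 and Cdh1 at 0.92, and none of 16 pan-epithelial genes differed 4-fold.

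**Figure D3:**
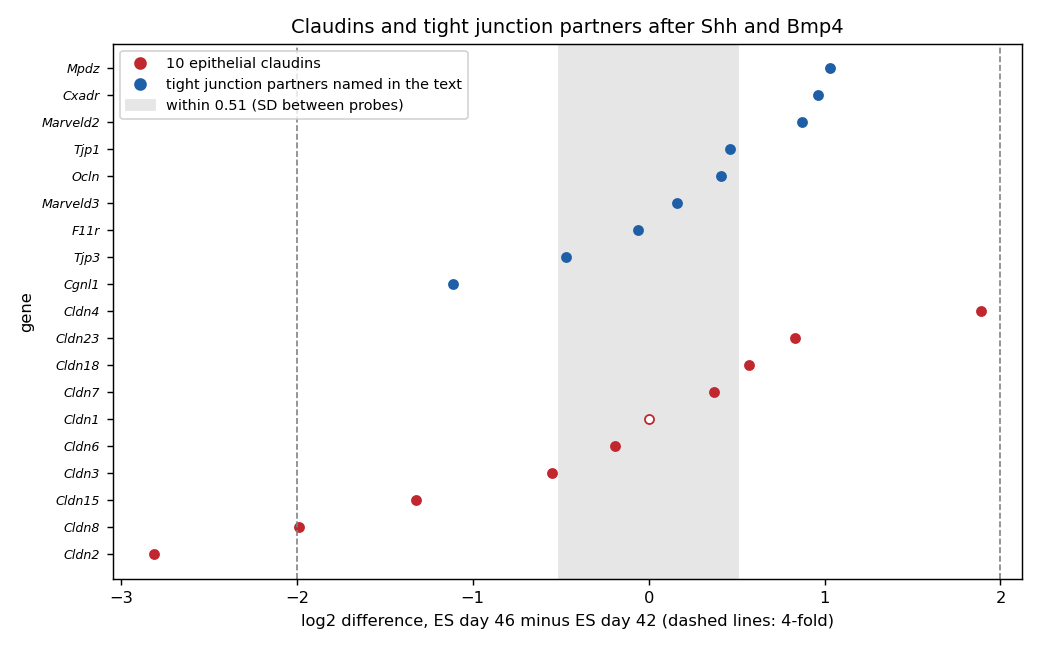
Each point is the log2 difference of 1 gene between day 46 and day 42 tissue, for the 10 claudins (red) and the tight junction partners named in the text (blue); the grey band is the SD between probes of 0.51, dashed lines mark 4-fold and the open circle is a bound. Cldn2 at -2.81 lies beyond the dashed line, Cldn8 and Cldn4 lie close to it, and the partners plotted lie between -1.11 and 1.03.

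The stomach primordium had a claudin mix unlike that of the adult organ. At E9.5 Cldn6 was at least 42.3-fold higher than in adult stomach, whereas Cldn18 was at least 1400-fold lower, Cldn23 17.3-fold lower (-4.11), Cldn15 11.5-fold lower (-3.52) and Cldn1 4.53-fold lower (-2.18). Cldn7 (1.52), Cldn3 (1.19), Cldn4 (-1.28) and Cldn8 (-1.48) did not differ 4-fold, and Cldn2 was above background on neither array. Of the 9 claudins measured, 1 was at least 4-fold higher and 4 lower, where 11.5% and 18.1% of 15090 genes were, with a median of -1.48. Median centring shifted all genes to 0.54 in this comparison, turned the split of all calls from 38.8% to 57.4% higher, and gave 2 claudins higher (Cldn7 at 2.09) and 3 lower (Cldn1 at -1.61). With the other background correction Cldn6 was higher by 1.97 and Cldn1 lower by 1.25, which leaves both short of 4-fold, as quantile normalization did for Cldn1 (-1.60).

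General epithelial genes were low at E9.5. Against adult stomach 15 of 16 pan-epithelial genes were lower by 4-fold or more (median -4.48), among them Rab25 (-6.59), Elf3 (-6.46) and Krt19 (-6.38). Junction partners were at least 4-fold lower in 9 of 22 and higher in 1 (median -1.46), with Igsf5 at -5.82, Ocln at -5.37, Crb3 at -5.24 and Tjp3 at -5.22, and 5 were lower under median centring. Epcam was lower by 3.46 and Cdh1 by 5.32. On the same array Cldn3 (1.19) and Cldn7 (1.52) lay above adult stomach, short of 4-fold, and Cldn6 was higher. Cldn1, Cldn4, Cldn8, Cldn15, Cldn18 and Cldn23 were lower. The part of epithelial content in these differences was not tested. Genes for the repressors of epithelial identity were on the other side, with 4 of 6 at least 4-fold higher: Twist1 (5.52), Twist2 (4.54), Snai1 (3.83) and Snai2 (2.01). The count was 5 with median centring, and 3 with quantile normalization and with the other background correction. The share of mesenchymal cells in the primordium, in which such repressors are active, was not measured.

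Set against this primordium, day 42 tissue had more of most claudins. Cldn7 was higher by 3.87 (14.7-fold), Cldn3 by 3.62 (12.3-fold), Cldn4 by 3.37 (10.3-fold), Cldn15 by 3.32 (9.98-fold) and Cldn23 by 2.99 (7.97-fold). Cldn2 was at least 860-fold and Cldn18 at least 7.19-fold higher. Cldn6 (-0.80) and Cldn8 (0.43) were within the SD between probes of 0.87, and Cldn1 was at least 2.55-fold lower, or by -3.51 without the background filter. That made 7 of 10 at least 4-fold higher and none lower, where 17.1% and 11.5% of 14695 genes were, with a median of 3.16. With the other background correction Cldn23 (1.56) and Cldn18 (0.74) fell short of 4-fold. Pan-epithelial genes were at least 4-fold higher in 14 of 16 (median 3.78), and junction partners in 8 of 22 with 1 lower (median 1.23), so the claudins were higher on an array with more epithelial signal throughout. Crb3 (5.47), Tjp3 (5.41), Marveld3 (5.22) and Ocln (5.15) led the partners, and Mpdz (-3.60) was the lower one. Epcam was higher by 4.90 and Cdh1 by 5.35.

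**Figure D4:**
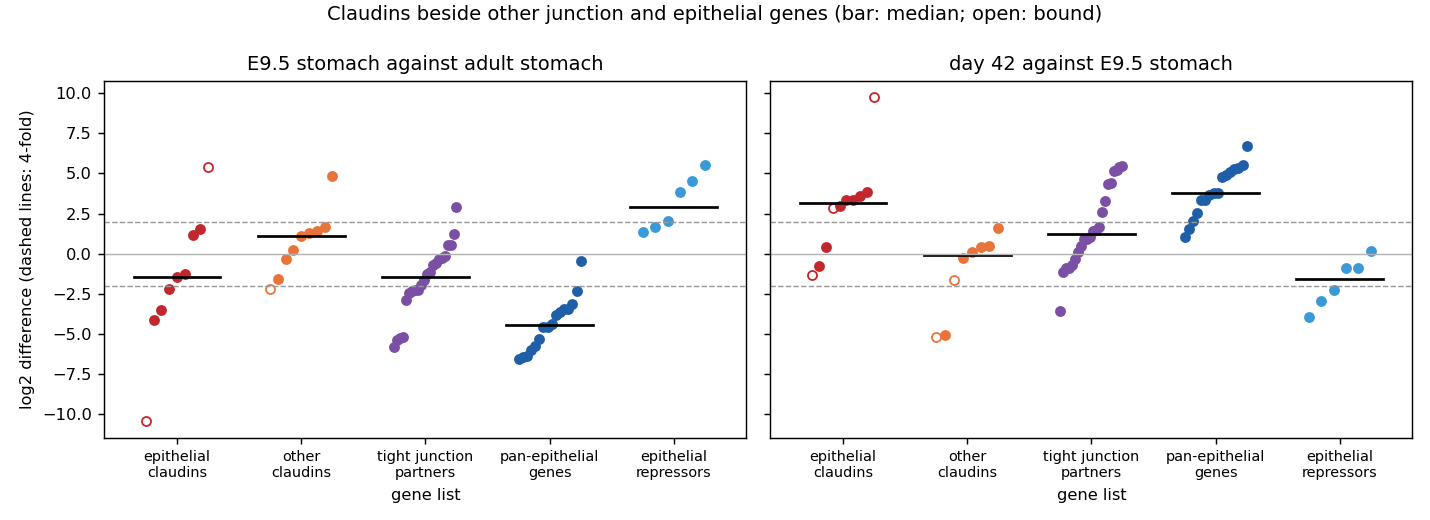
Points are the log2 differences of single genes in 5 lists, for E9.5 against adult stomach on the left and day 42 against E9.5 stomach on the right; bars are medians, open points bounds and dashed lines 4-fold. The claudin medians are -1.48 and 3.16, those of the pan-epithelial genes -4.48 and 3.78, and the repressors lie opposite with 2.92 and -1.57.

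The adult organs showed how far claudins vary between mature tissues. Intestine against stomach had 5 of 9 measured claudins at least 4-fold higher and 2 lower, where 7.95% and 7.02% of 14997 genes were. Cldn7 was higher by 8.92 (486-fold), Cldn3 by 7.07 (135-fold), Cldn15 by 6.83 (114-fold), Cldn4 by 3.30 (9.85-fold) and Cldn2 at least 5.78-fold. Cldn18 was at least 954-fold and Cldn8 at least 36.0-fold lower, while Cldn1 (-1.99) lay just inside 4-fold and Cldn23 (1.62) did not reach it. Of the 22 junction partners 1 was at least 4-fold higher (Marveld3, 3.73) and 1 lower (Pard3, -2.33), with a median of 0.67, and at 2-fold 9 were higher and 3 lower. Epcam was higher by 3.43 and Cdh1 by 0.88 in intestine. With the other background correction Cldn2 (0.99) and Cldn8 (-1.96) fell short of 4-fold, and the mean over both probes put Cldn1 past it (-2.68).

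Esophagus and lung differed from adult stomach in other members. In esophagus 2 of 8 measured claudins were at least 4-fold lower, Cldn18 (-7.30, 157-fold) and Cldn7 (-2.19, 4.56-fold), and none higher, where 6.31% and 5.31% of 14858 genes were. The remaining 6 lay between -1.21 (Cldn1) and 0.40 (Cldn15). Cldn7 was at -1.49 with the other background correction. Of 9 claudins outside the 10, Cldn17 (3.47), Cldn10 (2.48) and Cldn11 (2.25) were higher in esophagus, and none of them reached 4-fold with the other background correction. On the esophagus array 8 of 22 junction partners were lower by 4-fold or more and 2 higher (median -1.50), and 8 of 16 pan-epithelial genes were lower (median -1.99). Their part in the claudin values was not tested. In lung Cldn3 was higher by 5.20 (36.8-fold) and Cldn7 by 3.94 (15.4-fold), and Cldn4 (-2.44) and Cldn23 (-2.34) were lower. These were 2 of 8 on each side, where 8.83% of 14704 genes were higher and 8.97% lower. The other background correction brought Cldn4 to -1.34 and Cldn23 to -1.62. Cldn1 (-1.84) passed 4-fold with median centring (-2.02) and quantile normalization (-2.18). Of the pan-epithelial genes 11 of 16 were lower in lung and 1 higher (median -2.33), and of the junction partners 4 of 22 were lower and 1 higher. Outside the 10, the endothelial claudin Cldn5 (5.16) and Cldn10 (4.63) were also higher in lung.

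Among claudins outside the epithelial set, Cldn5 had its lowest levels in the ES-derived tissue. Cldn5, the claudin of blood vessels, was at -3.37 at day 42 and -3.23 at day 46, against -1.47 to 5.24 on the other arrays. Cldn11, known from myelin and the testis, was at -0.38 at E9.5 and at -2.98 or below elsewhere. Of 9 other claudins measured against adult stomach, 1 was at least 4-fold lower at day 42 (Cldn5, -3.45), where 10.3% of all genes were, and 2 at day 46 (Cldn5, -3.31, and Cldn17, at least 7.46-fold), where 9.91% were. None was 4-fold higher on either array as given here, and 1 was at day 42 with median centring or quantile normalization. The endothelial markers Pecam1, Cdh5, Kdr and Tek lay between -6.40 and -3.08 on both ES-derived arrays, and between -2.29 and 0.96 in adult stomach. The part of vessel content in the Cldn5 values was not tested.

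The genes whose levels followed each claudin most closely over the 7 arrays were named by Pearson's correlation among 9734 genes, as a description of these arrays only, which share a scaling and, for the adult organs, a slide. Levels not well above background entered these correlations as they stood. Cldn2 and Cldn6 were above background on only 3 of the 7 arrays and Cldn18 on 5. Cldn18 was followed by the chemokine Cxcl17 (r = 0.979) and Kcne2, a potassium channel subunit of the parietal cell (0.973). Kcne2 stood at 5.75 in adult stomach, 1.91 in lung and -4.26 or below elsewhere. Cldn2 was followed by the plasma protease inhibitor A2m (0.996), the meiotic gene Msh5 (0.979) and Serpina3m (0.978). Serpina3m was at 5.52 at day 42, 3.47 at day 46 and 0.02 or below elsewhere. The closest gene to Cldn6 was Psrc1 (0.991), a gene of the mitotic spindle, at 3.11 to 3.52 on the ES-derived and embryonic arrays and at -1.18 or below in the adult organs. Cldn7 was itself among the 3 closest genes to Cldn3 (0.951), and its own closest were Plscr1 (0.977) and the diamine oxidase Aoc1 (0.974). For the others the closest gene was L1cam for Cldn1 (0.977), Nmrk1 for Cldn4 (0.969), Ccdc125 for Cldn8 (0.975), Pdxk for Cldn15 (0.991) and the cytochrome Cyp3a13 for Cldn23 (0.988).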

How the data were processed

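Each of the 7 samples was measured on 1 Agilent 4x44K one-colour array. Per the file headers, the deposited scanner files hold spot intensities from Agilent Feature Extraction 10.7.3.1 (ES-derived arrays) or 10.5.1.1 (the other 5), while the submitters' processing notes name 10.5. The authors also deposited a log2 table, scaled to the 75th percentile per the labels, whose correlation with the scanner values was at least 0.999 (column medians from -3.43 to -2.68).

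Control spots and outliers were left out. Spots of a probe were averaged as log2 processed intensity, less the 75th percentile of each array. At least 0.5 of a probe's spots had to carry the scanner's flag for it to count as above background. Probes spotted at least 8 times had a median SD between 0.065 and 0.097. RefSeq (GRCm38.p6) named 24375 of the 41174 probes through their accession, 45 through a synonym and 12 through a symbol. The array headers give another build. GRCm38.p6 therefore served only for names, neighbouring genes and the sequences before the starts. The probe with the highest mean stood for each of 17047 genes. Where a gene was dim on 1 array of a pair, its own signal or the lowest detected signal of that array was used, whichever was higher. Where this left no difference, it was set to 0.

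With 1 array per group no test was run. The 4-fold threshold, the lists and the members were chosen with earlier results of these data known. Named genes were all members, the 3 genes with the highest correlation to each (above background on at least 3 arrays, range of at least 2), the largest differences of each companion list and a fixed set of junction genes, of which the text names fewer, and some are not reported here. No probe was named for Cgn, Pals1 and Sympk among the partners. The alternatives tried were centring on the median, quantile normalization, the authors' values, normexp (limma 3.58.1, offset 50, on median signals), no background filter, only genes detected on both arrays, the mean over probes, a 2-fold threshold, any probe for detection, and an equal number of genes counted on each array. The counting was tested on simulated data.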

Additional observations from a re-analysis of the deposited data

How the results depend on the processing

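No paired analysis was possible because each group holds 1 array. Over all 504 recomputed differences of single claudins, none that was past 4-fold changed direction, and 38 moved by more than the SD between probes, 31 of them with the normexp background correction, which adds an offset of 50 and so fewer dim genes reach a given fold. The array on which each claudin was highest stayed the same in all 50 recomputations, and the 14 recomputed detection counts stayed within 1.5 times. Of the 64 recomputed counts of claudins past 4-fold, 10 moved by more than 1.5 times. For day 46 against day 42 the count of 1 became 2 under median centring, 2 under quantile normalization and 4 at a 2-fold threshold. With only genes above background on both arrays, which leaves bounds out, day 42 against adult stomach fell from 7 to 4, E9.5 against adult stomach from 5 to 3, and intestine against stomach from 7 to 4. With normexp the counts were 3 for E9.5, 1 for esophagus (from 2) and 2 for lung (from 4), each against adult stomach, and a 2-fold threshold gave 9 for E9.5. With median centring the middle difference over all genes was 0.43 for day 42 and -0.32 for lung, each against adult stomach, from 0.00 and -0.14. With normexp, day 46 against day 42 had 54 genes higher and 68 lower, from 160 and 118, and without the background filter 500 and 160. The number of arrays limits every value.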
